A study of Homo sapiens with 12 samples.

Results

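The genes that load and display peptides on major histocompatibility complex (MHC) class II were examined in OCI-Ly7 cells, a diffuse large B-cell lymphoma cell line, after treatment with Btk inhibitors. They are 9 genes of the 19775 that the array reads with a probe set of their own: CIITA, CD74, HLA-DRA, HLA-DPA1, HLA-DPB1, HLA-DMA, HLA-DMB, HLA-DOA and HLA-DOB. They were chosen by name, as genes of this pathway, with earlier results of these data known. Every probe set that the array annotation gives to one of these symbols alone was taken, 22 in all. The HLA-DQ and HLA-DRB chains are not among them and are described later as context. Cells were exposed for 24 hours to 1 μM PLS-123, 10 μM ibrutinib, 1 μM ibrutinib or vehicle, with 3 arrays in each of the 4 groups. Whether these came from separate cultures is not given in the labels. Both compounds are covalent inhibitors of Btk, a kinase that relays the signal of the B-cell receptor. RNA of the cells was labelled and hybridized to Affymetrix U133 Plus 2.0 arrays, and the values are intensities normalized by RMA, in arbitrary units. A probe set is several short probes that read 1 stretch of a transcript, and the brightest one speaks for a gene unless another is named. Differences are on the log2 scale, and a gene is called changed at an adjusted p under 0.05 from limma (Benjamini-Hochberg over all 54613 probe sets).

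B cells display peptides from internalized antigen on MHC class II molecules, each made of an alpha and a beta chain. The newly made chains travel with the invariant chain, the product of CD74, whose last fragment stays in the peptide groove until HLA-DM, the product of HLA-DMA and HLA-DMB, exchanges it for a peptide. HLA-DO, the product of HLA-DOA and HLA-DOB, binds HLA-DM and restrains it, and is found mainly in B cells, thymic epithelium and some dendritic cells. CIITA is the coactivator without which most of these genes are hardly transcribed. It does not bind DNA itself but docks on proteins that sit on a conserved stretch of the class II promoters, RFX on the X box, CREB on the adjoining box and NF-Y on the Y box.

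RefSeq promoter windows of 300 bases (GRCh38.p14) were found for 7 of the 9 genes, and not for CIITA and HLA-DRA. They are shown because the proteins that CIITA docks on bind these stretches, and the transcripts that encode those proteins are described below. Each sequence runs 5′ to 3′ on the strand of the gene. The capitals mark exact matches to the run CTGATGATG, which spans the join of the X box and the box beside it. They also mark exact matches to the letters of the Y box core, ATTGG or, read on the other strand, CCAAT. The letters of the first run were chosen after these sequences had been read.
HLA-DOB, chr6:32817086-32817141, minus strand: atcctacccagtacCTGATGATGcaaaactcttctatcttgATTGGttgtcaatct
HLA-DMA, chr6:32953162-32953219, minus strand: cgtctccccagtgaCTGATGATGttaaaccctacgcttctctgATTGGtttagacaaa
HLA-DMB, chr6:32941036-32941125, minus strand: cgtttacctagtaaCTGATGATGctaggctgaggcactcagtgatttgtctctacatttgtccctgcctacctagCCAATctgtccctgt
HLA-DOA, chr6:33009644-33009703, minus strand: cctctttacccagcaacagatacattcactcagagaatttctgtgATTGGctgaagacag
HLA-DPB1, chr6:33075846-33075905, plus strand: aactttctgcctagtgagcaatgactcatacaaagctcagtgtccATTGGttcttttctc
CD74, chr5:150412949-150413008, minus strand: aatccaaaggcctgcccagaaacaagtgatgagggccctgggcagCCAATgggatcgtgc

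The run CTGATGATG was present on either strand in 95 of 35116 promoter windows of all genes (0.271%), among them those of HLA-DOB, HLA-DMA and HLA-DMB. The core ATTGG, on either strand, is common, and 34.6% of all windows held it. The run followed by ATTGG within 15 to 35 bases on the strand of the gene was found in 3 windows, those of HLA-DOB, HLA-DMA and HLA-DRB1. The gap was 18 bases in HLA-DOB and 20 bases in HLA-DMA, whereas the HLA-DMB window held a reversed core 52 bases on. Since the run was chosen after these windows had been read, the counts are a description and not a test. No gap range other than 15 to 35 bases was searched. The HLA-DOA, HLA-DPB1 and CD74 windows held the core without the run, and both HLA-DPA1 windows held neither. Only exact letters were searched, so a box spelled otherwise is not marked. A window without the run may still hold an X box, and a marked core need not be the Y box. Whether these stretches bear on the array values below was not tested.

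The brightest probe sets of all 9 genes ranked above the median probe set by mean level. They stood between percentile 63.7 (CIITA) and percentile 99.1 (HLA-DPA1) of all probe sets. This rank pools all groups, and CIITA and HLA-DOB were read at low intensity. Intensities ran from 2.09 to 15751 over the arrays, with array medians of 14.2 to 14.8. CIITA read 24.4 to 40.5 on all arrays. HLA-DOB read 18.1 to 27.2 with PLS-123 and ibrutinib 10 μM, not far above those medians, and 61.3 to 123 in the other groups. Of the 22 probe sets of these genes, 5 were dim, that is, below the median probe set at a log2 intensity of 3.87. Arrays of 1 group correlated with r between 0.995 and 0.997. The line showed its B-cell markers in every group. Their summed intensity over 6 genes was 11640 to 12215 with PLS-123, 11999 to 12190 with ibrutinib 10 μM, 14702 to 15477 with ibrutinib 1 μM and 14508 to 15204 with vehicle. With PLS-123, 4 of the 6 were lower and 2 higher than with vehicle, while 12.8% and 7.54% of all genes were. With ibrutinib 10 μM, 2 were lower and 1 higher, while 5.82% and 6.71% of all genes were. The sums pool genes that moved in opposite directions. BCL6 had 1239, 1288 and 1285 with PLS-123, 1351, 1345 and 1467 with ibrutinib 10 μM, and 3467, 3368 and 3613 with vehicle. MME had 1804, 1819 and 1813, then 1519, 1551 and 1512, and 559, 565 and 560 in the same groups. The part of these shifts in the results below was not tested. Of 8 T and NK cell markers 7 were dim and none changed, and their summed intensity stayed between 70.0 and 86.0 on all arrays. Of 6 myeloid and dendritic markers, which summed to 116 to 125 with PLS-123, 109 to 138 with ibrutinib 10 μM, 293 to 354 with ibrutinib 1 μM and 323 to 360 with vehicle, 1 was lower with PLS-123 and with ibrutinib 10 μM. This was CD1C, a lipid-presenting molecule that B cells also carry, at -2.21 with PLS-123 (adjusted p = 2.177e-07, limma) and -2.14 with ibrutinib 10 μM (adjusted p = 3.532e-07), and the other 5 summed to between 51.8 and 64.1 on all arrays. RNA shortening was read from the 3′ and 5′ control probe sets of ACTB, whose log2 difference was 2.93 ± 0.20 with PLS-123, 2.74 ± 0.08 with ibrutinib 10 μM, 2.67 ± 0.18 with ibrutinib 1 μM and 2.64 ± 0.04 with vehicle (SD, n = 3 arrays each).

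The first comparison asked which class II genes the inhibitors moved, and their directions differed. Against vehicle, HLA-DOB and CD74 fell with PLS-123 and with ibrutinib 10 μM, HLA-DMB and HLA-DOA rose with PLS-123, HLA-DRA and HLA-DPB1 fell with ibrutinib 10 μM, and CIITA, HLA-DPA1 and HLA-DMA passed the test in no comparison between the 4 groups. With PLS-123, 2 of the 9 genes were lower, while 12.8% of all genes were, and 2 were higher, while 7.54% of all genes were. With ibrutinib 10 μM, 4 were lower against 5.82% of all genes, and 0 were higher against 6.71%. With ibrutinib 1 μM, 0 of the 9 genes and 0% of all genes were called by limma; 1 of the 9 had an unadjusted p under 0.05, and limma with an intensity trend or on 2 groups alone, and the methods' t-test, also called 0. The median log2 difference of the 9 genes was 0.01 with PLS-123, 0.01 with ibrutinib 10 μM and -0.10 with ibrutinib 1 μM, beside -0.04, -0.02 and -0.01 over all genes. All 3 comparisons share the vehicle arrays.

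**Figure D1:**
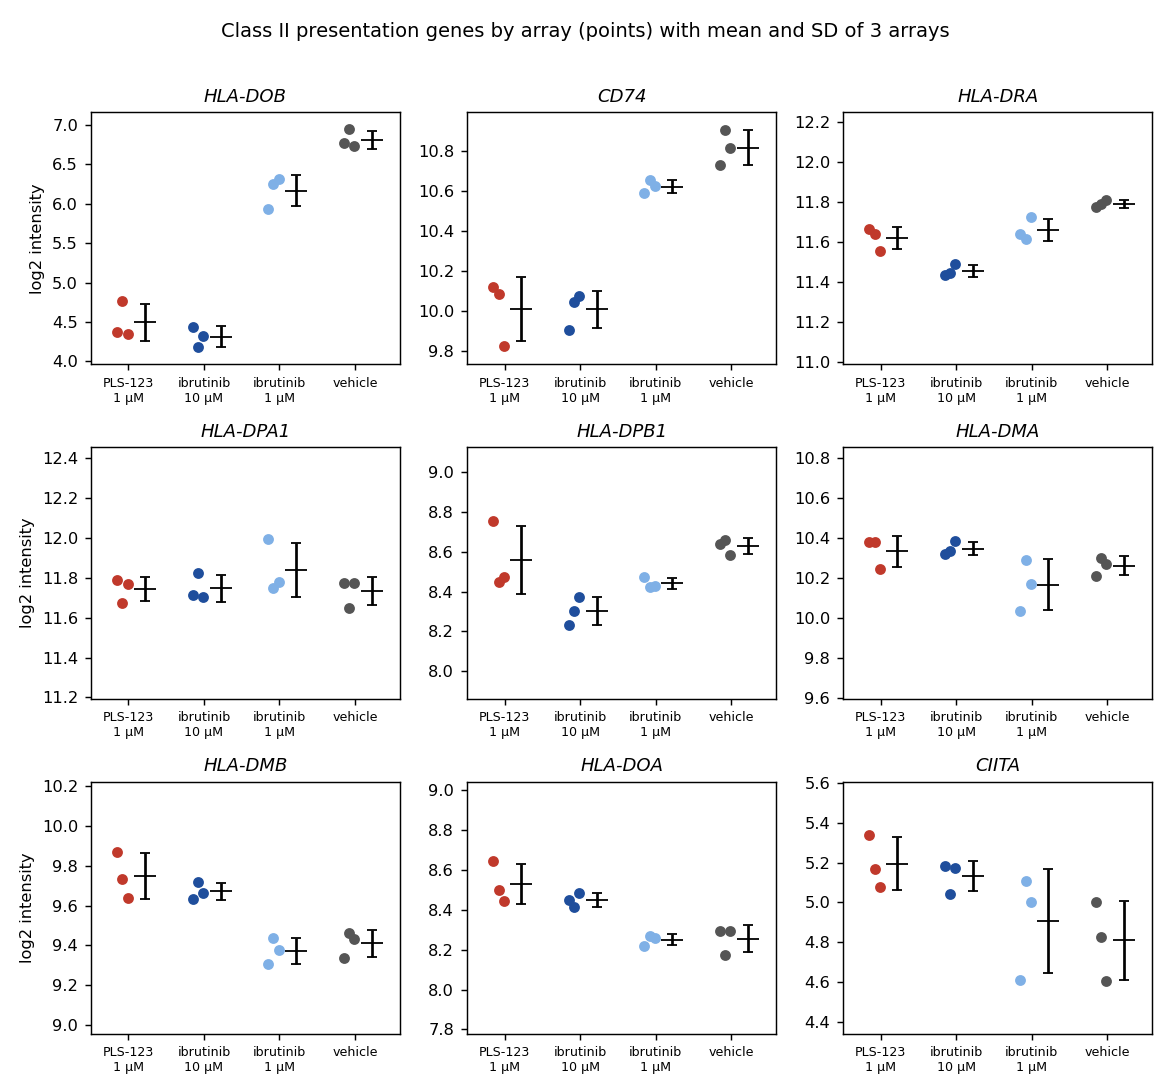
Log2 intensity of the brightest probe set of each class II gene, with 1 point per array, 4 groups of 3 arrays along the x axis, and the mean and SD beside the points. The y axes differ between genes. For HLA-DOB and CD74 the arrays of PLS-123 and of ibrutinib 10 μM lie together, far below the vehicle arrays, and those of ibrutinib 1 μM lie between.

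HLA-DOB, the beta chain of HLA-DO, fell the most of the 9 genes. Its intensity was 20.7, 27.2 and 20.4 with PLS-123, 21.7, 18.1 and 20.0 with ibrutinib 10 μM, 61.3, 76.1 and 79.5 with ibrutinib 1 μM, and 109, 123 and 106 with vehicle. The PLS-123 and ibrutinib 10 μM arrays overlapped, both lay below all ibrutinib 1 μM arrays, and these lay below all vehicle arrays. The level was 4.99-fold lower with PLS-123 than with vehicle (95% confidence interval of the log2 difference -2.60 to -2.04, adjusted p = 4.226e-08, limma) and 5.66-fold lower with ibrutinib 10 μM (-2.78 to -2.22, adjusted p = 2.033e-08). With a pseudocount of 16, which weighs down values as low as those of the treated arrays, the log2 differences were -1.73 and -1.84, and the calls held. With ibrutinib 1 μM it was 1.57-fold lower (-0.93 to -0.37), which did not pass the correction over all probe sets (adjusted p = 0.4126, limma). An exact permutation test of these 3 arrays against the 3 vehicle arrays gave p = 0.1, two-sided, the smallest it allows. In bulk RNA, fewer cells with the transcript cannot be told apart from less transcript per cell. The second HLA-DOB probe set was dim, at 6.24 to 7.64 on all 12 arrays, and did not change.

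CD74, the invariant chain, was the other gene that fell with both compounds. Its intensity was 1113, 1087 and 906 with PLS-123, 957, 1058 and 1076 with ibrutinib 10 μM, 1541, 1613 and 1579 with ibrutinib 1 μM, and 1702, 1917 and 1805 with vehicle. Here too the arrays of PLS-123 and ibrutinib 10 μM overlapped and lay below all others, and the arrays of ibrutinib 1 μM lay below those of vehicle without a call. The level was 57.1% of that with vehicle after PLS-123 (log2 difference -0.81, SE 0.09, adjusted p = 4.493e-05, limma), 57.0% after ibrutinib 10 μM (-0.81, SE 0.09, adjusted p = 5.146e-05) and 87.3% after ibrutinib 1 μM (-0.20, adjusted p = 0.9199). A second CD74 probe set, much dimmer, was -0.66 with PLS-123 (adjusted p = 0.00894, limma) and -0.49 with ibrutinib 10 μM (adjusted p = 0.06283), and the third was dim and not changed against vehicle. The difference with ibrutinib 1 μM, on the log2 scale, was 24.1% of that with 10 μM for CD74 and 25.9% for HLA-DOB. It was 39.3% for HLA-DRA and 57.5% for HLA-DPB1, the other genes called with ibrutinib 10 μM. None of these differences with ibrutinib 1 μM was called, so the shares are imprecise.

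HLA-DRA, the alpha chain that pairs with every HLA-DR beta chain, moved less. Its intensity was 3244, 3193 and 3009 with PLS-123, 2768, 2786 and 2878 with ibrutinib 10 μM, 3193, 3138 and 3382 with ibrutinib 1 μM, and 3501, 3540 and 3595 with vehicle. The ibrutinib 10 μM arrays were the lowest 3 and the vehicle arrays the highest 3, with the rest mixed between them. It fell with ibrutinib 10 μM to 79.3% of the vehicle level (log2 difference -0.34, SE 0.07, adjusted p = 0.008388, limma). With PLS-123 the brightest probe set was at -0.17 (adjusted p = 0.134), and the second at -0.29 (adjusted p = 0.01922), so the call with PLS-123 depends on the probe set, while with ibrutinib 10 μM the second also passed (-0.40, adjusted p = 0.003111).

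The HLA-DP chains, which form a further class II molecule, differed from each other. HLA-DPB1, the beta chain, had 431, 349 and 355 with PLS-123, 301, 316 and 331 with ibrutinib 10 μM, 355, 343 and 344 with ibrutinib 1 μM, and 398, 404 and 383 with vehicle. The PLS-123 arrays fell on both sides of the vehicle arrays, with 1 above them all, and the ibrutinib 10 μM arrays were the lowest 3. HLA-DPB1 was -0.32 with ibrutinib 10 μM (SE 0.09, adjusted p = 0.03549, limma), a call that was lost without any one array of ibrutinib 10 μM or of vehicle, or without array C of ibrutinib 1 μM (adjusted p = 0.05105 to 0.1227). With PLS-123 it was -0.07 (95% confidence interval -0.26 to 0.12), and -0.17 without array A, the one that stood above the rest (adjusted p = 0.2231). HLA-DPA1, the alpha chain, ranged from 3215 to 4083 over all 12 arrays with all groups overlapping. Its differences were 0.01 with PLS-123 (-0.18 to 0.20), 0.01 with ibrutinib 10 μM (-0.17 to 0.20) and 0.11 with ibrutinib 1 μM (-0.08 to 0.30). The second HLA-DPA1 probe set was lower on all arrays of PLS-123 and ibrutinib 10 μM than on those of vehicle without a call, at -0.22 (-0.40 to -0.04, adjusted p = 0.09941, limma) and -0.19 (-0.37 to -0.00, adjusted p = 0.2266), and the third was at -0.05 and -0.09.

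The partners in peptide exchange went apart from HLA-DOB. HLA-DMB, the beta chain of HLA-DM, had 934, 851 and 797 with PLS-123, 794, 841 and 811 with ibrutinib 10 μM, 634, 693 and 664 with ibrutinib 1 μM, and 646, 705 and 691 with vehicle. The arrays of PLS-123 and ibrutinib 10 μM all lay above the other 6. It rose 1.26-fold with PLS-123 (log2 difference 0.34, SE 0.08, adjusted p = 0.01275, limma) and was at 0.26 with ibrutinib 10 μM (adjusted p = 0.06717). The call with PLS-123 was lost without array A of PLS-123 (adjusted p = 0.05424) or array A of vehicle (adjusted p = 0.05534).

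HLA-DOA, the partner chain of HLA-DOB, had 399, 362 and 348 with PLS-123, 350, 341 and 358 with ibrutinib 10 μM, 298, 309 and 306 with ibrutinib 1 μM, and 314, 289 and 314 with vehicle. It rose with PLS-123 by 0.28 (SE 0.08, adjusted p = 0.02855, limma), and its 4 other probe sets, all far dimmer, lay between -0.04 and 0.17 and did not pass. The brightest set was at 0.19 with ibrutinib 10 μM (adjusted p = 0.164). The rise with PLS-123 was lost without array A or B of PLS-123 or any one vehicle array (adjusted p = 0.05247 to 0.1154), so it is less firm than the fall of HLA-DOB, which kept its call whichever array was left out. Within HLA-DO, then, the beta chain was -2.32 and the alpha chain 0.28 with PLS-123. HLA-DMA, the alpha chain of HLA-DM, ranged from 1051 to 1338 over all arrays and was at 0.07 with PLS-123 (95% confidence interval -0.11 to 0.26) and 0.09 with ibrutinib 10 μM (-0.09 to 0.27).

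CIITA, the coactivator, passed the test in neither direction. Its intensity was 40.5, 36.0 and 33.7 with PLS-123, 36.3, 33.0 and 36.1 with ibrutinib 10 μM, 24.5, 34.5 and 32.1 with ibrutinib 1 μM, and 32.0, 28.4 and 24.4 with vehicle. All arrays of PLS-123 and ibrutinib 10 μM lay above all vehicle arrays, but neither difference passed the test, at 0.38 (95% confidence interval 0.10 to 0.67, adjusted p = 0.06538, limma) and 0.32 (0.04 to 0.61, adjusted p = 0.1701). The PLS-123 difference passed without array A of ibrutinib 1 μM (adjusted p = 0.02783) or without array A of vehicle (0.48, adjusted p = 0.04296), and also with an intensity trend (adjusted p = 0.04916), after quantile normalization (0.41, adjusted p = 0.03906) and with dim probe sets left out (adjusted p = 0.0366). The 2 dimmer CIITA probe sets were at -0.18 and -0.23 with PLS-123, so the sign of the CIITA difference depends on the probe set.

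**Figure D2:**
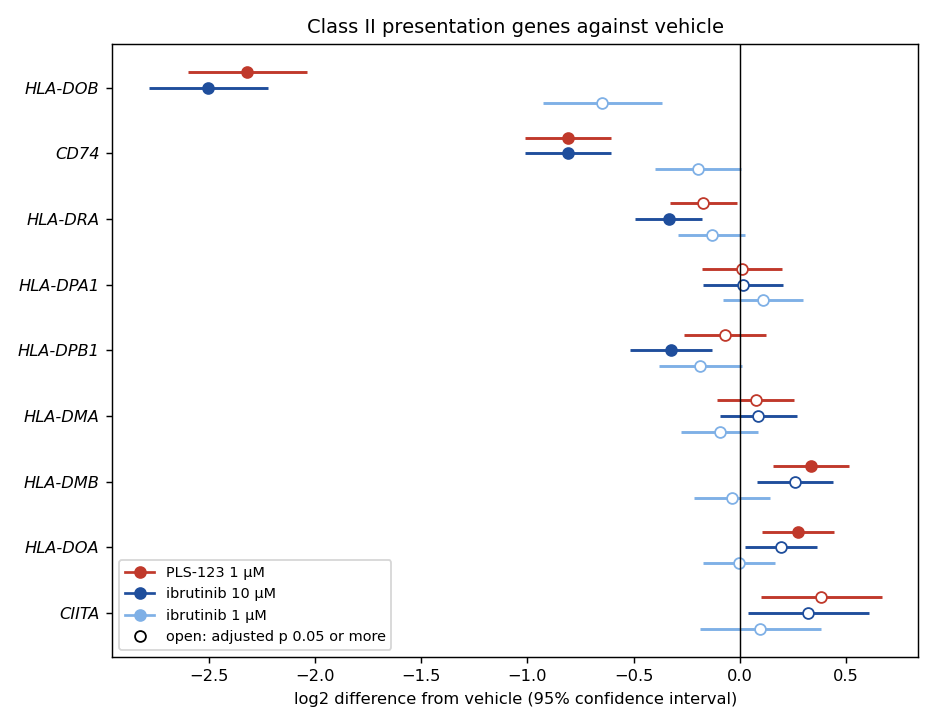
Log2 difference of each class II gene from vehicle (x axis), with its 95% confidence interval, for PLS-123, ibrutinib 10 μM and ibrutinib 1 μM. Filled points passed an adjusted p of 0.05. HLA-DOB and CD74 stand apart to the left, and the intervals of HLA-DPA1 and HLA-DMA span 0 for every treatment.

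The RNA end difference moved with the same groups. For ACTB it exceeded the vehicle mean by 0.29 after PLS-123 and by 0.10 after ibrutinib 10 μM (exact permutation test, two-sided, p = 0.1 each, the smallest that 3 arrays against 3 allow), and for GAPDH by 0.14 and 0.08. With each array's ACTB difference as a covariate, HLA-DOB was at -2.07 with PLS-123 (adjusted p = 3.836e-06, limma) and -2.42 with ibrutinib 10 μM, and CD74 at -0.68 (adjusted p = 0.003523) and -0.77. HLA-DRA kept its call with ibrutinib 10 μM (-0.32, adjusted p = 0.01766) and HLA-DMB its call with PLS-123 (0.45, adjusted p = 0.01946). HLA-DOA with PLS-123 (adjusted p = 0.0998, limma) and HLA-DPB1 with ibrutinib 10 μM (adjusted p = 0.06361) lost theirs. Calls were gained by CIITA with PLS-123 (0.61, adjusted p = 0.03964) and by HLA-DMB with ibrutinib 10 μM, where it was higher.

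The compounds were next compared with each other. At the matched dose of 1 μM, 2 of the 9 genes were lower with PLS-123 than with ibrutinib, while 10.1% of all genes were, and 2 were higher, while 5.78% were. HLA-DOB was 3.18-fold lower with PLS-123 (log2 difference -1.67, 95% confidence interval -1.95 to -1.39, adjusted p = 1.267e-06, limma), and CD74 was 1.53-fold lower (-0.61, -0.82 to -0.41, adjusted p = 0.0005942). The second CD74 probe set was also lower (-0.65, adjusted p = 0.01309, limma), and the third, which was dim, was higher (0.35, adjusted p = 0.02404). HLA-DMB was 0.37 higher (0.19 to 0.55, adjusted p = 0.008706) and HLA-DOA 0.28 higher (0.11 to 0.45, adjusted p = 0.03224), the last lost without array A or B of PLS-123 or any one array of ibrutinib 1 μM (adjusted p = 0.06216 to 0.1149). HLA-DRA, HLA-DPA1 and HLA-DPB1 showed no called difference, with intervals of -0.20 to 0.12 for HLA-DRA, -0.28 to 0.09 for HLA-DPA1 and -0.08 to 0.31 for HLA-DPB1. Of the chains outside the 9 genes, HLA-DQB1 (-0.67, adjusted p = 0.0002586, limma) and HLA-DQA1 (-0.48, adjusted p = 0.04483) were lower with PLS-123. HLA-DMA was at 0.17 (-0.01 to 0.35) and CIITA at 0.29 (0.00 to 0.57, adjusted p = 0.2022).

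Against ibrutinib 10 μM, a dose that differs, 0 of the 9 genes differed by limma with PLS-123 at 1 μM, and 0.212% of all genes did. CD74 was at 0.00 (95% confidence interval -0.20 to 0.20) and HLA-DOB at 0.18 (-0.10 to 0.46, adjusted p = 0.5338). Of the 9 genes 2 had an unadjusted p under 0.05, both class II chains: HLA-DRA was 0.16 higher with PLS-123 (0.01 to 0.32, adjusted p = 0.3095) and HLA-DPB1 0.25 higher (0.06 to 0.45, adjusted p = 0.2069). The methods' t-test called 0 of the 9, and limma with an intensity trend called 1, HLA-DRA. Calls that CD74 and HLA-DOB shared between the compounds rest on the same vehicle arrays.

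Between the ibrutinib doses, 2 genes were lower at 10 μM than at 1 μM, while 4.46% of all genes were, and 1 was higher, while 5.27% were. HLA-DOB was at -1.85 (95% confidence interval -2.13 to -1.57, adjusted p = 5.163e-07, limma) and CD74 at -0.62 (-0.82 to -0.41, adjusted p = 0.0007152). HLA-DMB was at 0.30 (0.12 to 0.48, adjusted p = 0.04381), and passed without array A or C of PLS-123 only, the adjusted p lying between 0.05437 and 0.1469 without any other array. HLA-DRA, called against vehicle at 10 μM and not at 1 μM, was at -0.20 between the doses (-0.36 to -0.05, adjusted p = 0.1305) by its brightest probe set. Its second probe set passed (-0.27, adjusted p = 0.04814, limma), and the brightest did with a pseudocount of 16, an intensity trend or dim probe sets left out (adjusted p = 0.002568 to 0.03184), so the call between the doses depends on the probe set and the setting. HLA-DPB1 was at -0.14 (-0.33 to 0.06, adjusted p = 0.5003).

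**Figure D3:**
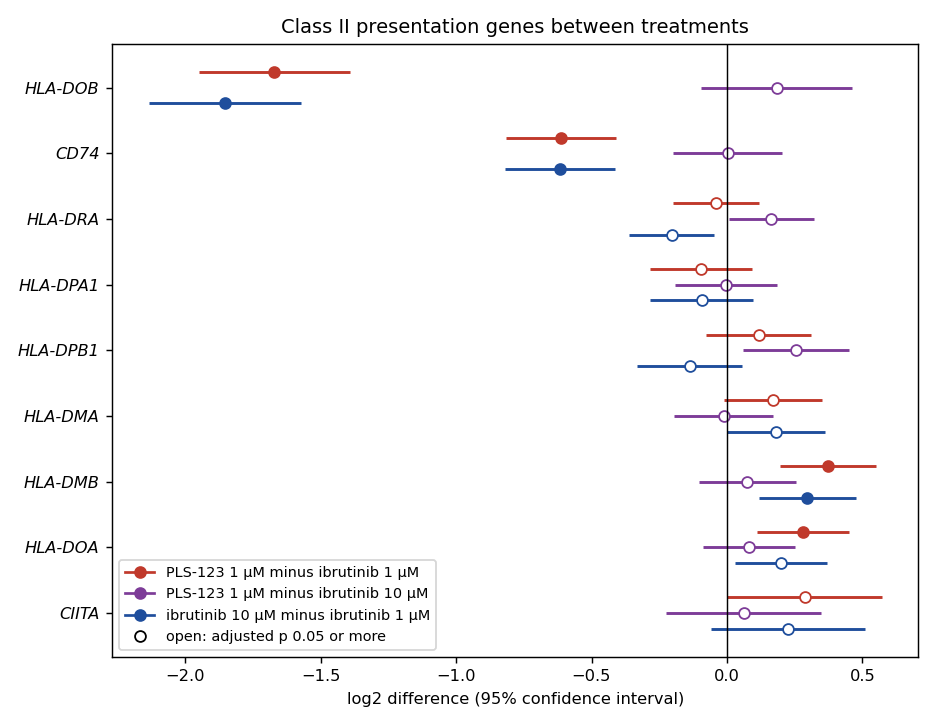
Log2 difference of each class II gene between treatments (x axis) with its 95% confidence interval: PLS-123 minus ibrutinib at 1 μM, PLS-123 1 μM minus ibrutinib 10 μM, and ibrutinib 10 μM minus 1 μM. Filled points passed an adjusted p of 0.05. None of the PLS-123 minus ibrutinib 10 μM points is filled, and HLA-DOB and CD74 are the leftmost points of the other pairs.

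Transcripts of the proteins that CIITA docks on were read from a list of 8 genes that includes CIITA. With PLS-123, 4 were lower and 1 was higher than with vehicle, while 12.8% and 7.54% of all genes were. The list median was -0.09. RFXANK (-0.51, adjusted p = 0.003872, limma) and RFX5 (-0.29, adjusted p = 0.01964), subunits of RFX, fell, as did NFYA (-0.37, adjusted p = 0.009433) and NFYC (-0.25, adjusted p = 0.03032), subunits of NF-Y, whereas NFYB, its other subunit, rose (0.40, adjusted p = 0.005263). RFXAP, the remaining RFX subunit, was at 0.46 (adjusted p = 0.1338) and CREB1 at 0.08. With ibrutinib 10 μM, where 5.82% of all genes were lower and 6.71% higher, NFYB was higher (0.35, adjusted p = 0.01764, limma) and the other 7 did not pass. RFXANK was then at -0.32, RFX5 at -0.24, NFYA at -0.16 and NFYC at -0.08, and between PLS-123 and ibrutinib 10 μM none of the 8 passed.

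Transcription factors that have been linked to the CIITA gene were read from a further list. Of 10 measured, 5 were lower and 2 higher with PLS-123, and 4 were lower and 2 higher with ibrutinib 10 μM. The shares over all genes were 12.8% and 7.54% with PLS-123, and 5.82% and 6.71% with ibrutinib 10 μM. POU2F2, which encodes the B-cell octamer factor Oct-2, fell to 157, 162 and 146 with PLS-123 and 197, 195 and 204 with ibrutinib 10 μM, against 434, 469 and 452 with vehicle (log2 differences -1.54 and -1.18). IRF8 (-1.18 and -0.96), IRF4 (-1.15 and -0.86) and IKZF1 (-0.49 and -0.47) also fell with both, and PAX5 with PLS-123 (-0.38), while it was at -0.15 with ibrutinib 10 μM. IRF1, an interferon-induced factor, had 207, 210 and 192 with PLS-123 and 205, 220 and 191 with ibrutinib 10 μM, against 93.0 to 96.3 with vehicle, a rise of 1.10 and 1.11, and POU2AF1, the coactivator of Oct-2, rose by 0.37 and 0.28. SPI1 (-0.23 and -0.08), ZBTB32 (-0.16 and -0.04) and PRDM1 (-0.02 and 0.04), the plasma cell repressor that is known to silence CIITA, did not pass with either. With ibrutinib 1 μM none of the 10 passed.

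Class II chains outside the 9 genes were read as context, since their probe sets can cross-read related chains and often carry several symbols. HLA-DQB1 had 126, 133.2 and 116 with PLS-123 and 117, 114 and 123 with ibrutinib 10 μM, against 225, 259 and 212 with vehicle (-0.89, adjusted p = 1.718e-05, and -0.97, adjusted p = 8.417e-06, limma). HLA-DQA1 was at -0.86 and -0.68, and HLA-DRB1 at -0.35 and -0.38, all called. This HLA-DQA1 probe set read only 15.8 to 36.8 over all arrays. The other probe sets with that symbol alone were dim, at -0.03 and -0.09 with PLS-123, and did not pass. HLA-DRB4, whose probe set was dim, was at 0.47 with PLS-123 (adjusted p = 0.01548). Of the 8 probe sets above the dim limit that carry an HLA-DQ symbol, 7 were lower with PLS-123 and 8 with ibrutinib 10 μM, and of the 6 with an HLA-DRB symbol, 4 and 5 were. These counts overlap, since 3 probe sets carry both kinds of symbol. Over all genes, read from the brightest probe set, 12.8% were lower with PLS-123 and 5.82% with ibrutinib 10 μM. HLA-DQA1 and HLA-DPA1, both alpha chains, had unlike differences, but they were read at very unlike levels, with HLA-DPA1 at 3215 to 4083.

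The proteases that cut antigen and the invariant chain went in both directions. Of 9 measured endolysosomal genes, 2 were lower and 4 higher with PLS-123, and 1 was lower and 4 higher with ibrutinib 10 μM. The shares over all genes were 12.8% and 7.54% with PLS-123, and 5.82% and 6.71% with ibrutinib 10 μM. CTSH, a cathepsin with aminopeptidase activity, had 593, 532 and 473 with PLS-123 and 583, 622 and 633 with ibrutinib 10 μM, against 144, 152 and 141 with vehicle, a rise of 1.87 and 2.07 (adjusted p = 1.399e-08 and 5.912e-09, limma). LGMN, the asparaginyl endopeptidase, rose by 1.04 and 0.82, and CTSC, a dipeptidyl peptidase, by 0.37 and 0.48, whereas CTSZ, a carboxypeptidase, fell (-0.80 and -0.91). CTSS, which removes most of the invariant chain in B cells and was named after its values were seen, rose by 0.39 and 0.51. SPPL2A, the other gene of this list called lower with PLS-123 and also named after its values were seen, was at -0.40 (adjusted p = 0.002538, limma). With ibrutinib 10 μM it was at -0.08 and did not pass. Of 7 genes for class II ubiquitin ligases and tetraspanins, 1 was lower with PLS-123, the tetraspanin CD37 (-0.37), and 1 was higher with ibrutinib 10 μM, CD53 (0.28). So few calls are near the shares over all genes.

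Class I presentation, the pathway most like this one, also had called genes in both directions. Over all genes, 12.8% were lower and 7.54% higher with PLS-123, and 5.82% and 6.71% with ibrutinib 10 μM. Of 6 genes, the class I heavy chains with B2M, 1 was lower and 2 higher with PLS-123, and 2 were lower and 1 higher with ibrutinib 10 μM. The 1 lower gene of 6 with PLS-123 is near the share over all genes. HLA-C was at -0.39 and -0.45 and HLA-E at 0.38 and 0.55, all called, while B2M was at 0.42 with PLS-123 (adjusted p = 0.02369, limma) and HLA-B at -0.29 with ibrutinib 10 μM (adjusted p = 0.02321). The probe sets of HLA-B, HLA-C and HLA-E can also cross-read related chains. Of 14 class I processing genes, 4 were lower and 4 higher with PLS-123, and 3 were lower and 4 higher with ibrutinib 10 μM. NLRC5, which does for class I genes what CIITA does for class II, rose by 0.96 (adjusted p = 5.042e-06, limma) and 0.97, where CIITA was at 0.38 and 0.32 and did not pass. TAP2, a subunit of the class I peptide transporter whose gene lies beside HLA-DOB, fell (-0.69 and -0.83), and PSME1 (0.59 and 0.59) and ERAP2 (0.65 and 0.68) rose.

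**Figure D4:**
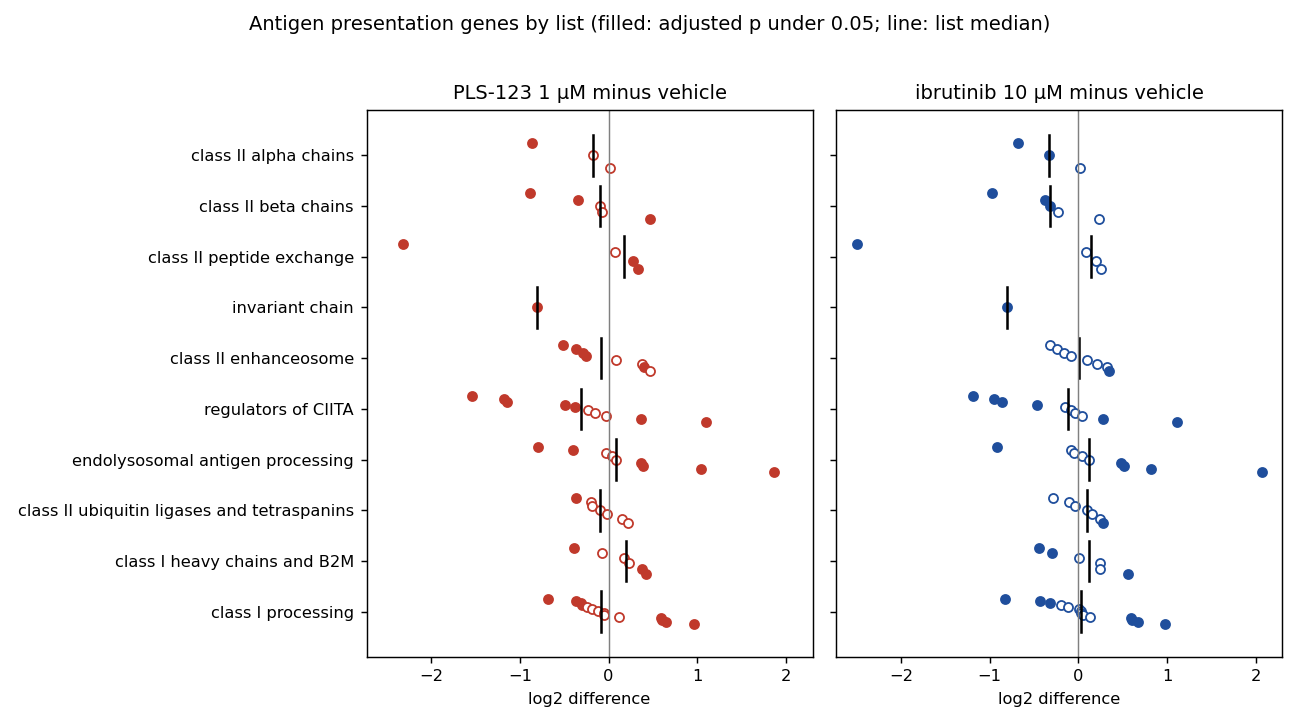
Log2 difference from vehicle (x axis) of each measured gene of 10 antigen presentation lists, for PLS-123 on the left and ibrutinib 10 μM on the right. Filled points passed an adjusted p of 0.05, and the bar is the list median. HLA-DOB is the leftmost point of the peptide exchange list, at -2.32 and -2.50, and CTSH the rightmost of the endolysosomal list, at 1.87 and 2.07.

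The way the 9 genes varied over the 12 arrays was described by Pearson's r, without a test, since the arrays form 4 groups and share them. HLA-DOB and CD74 had r = 0.97, and HLA-DRA had r = 0.84 with HLA-DOB and 0.83 with CD74. HLA-DMB and HLA-DOA had r = 0.92 with each other and -0.85 each with HLA-DOB. CIITA had r = 0.78 with HLA-DOA, 0.74 with HLA-DMB and 0.68 with HLA-DMA, and -0.67 with both CD74 and HLA-DOB. Among 12031 other genes above the dim limit, the patterns most like HLA-DOB were HLA-C (r = 0.9954), NCF1 (0.9916) and TNNT1 (0.9857), and those most like CD74 were SNX22 (0.9886), MRTFA (0.9877) and FKBP15 (0.9857). Such likeness was common, with 656 genes above r = 0.9 for HLA-DOB and 786 for CD74. For CIITA 2 genes were, TRABD (0.9266) and SSBP4 (0.9204), and ZXDC came next (0.8886).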

How the data were processed

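The authors normalized 12 arrays with RMA, per the labels, and deposited intensity values on a linear scale. RMA scales the arrays to one another, so changes are relative to the bulk of transcripts. Log2 was taken with nothing added. Of 54675 probe sets, 62 controls were left out. A gene is read from the brightest probe set with its symbol alone, which 41091 probe sets have, while 1801 have several and 11721 none.

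limma 3.58.1 (R 4.3.3) used all 12 arrays, with a mean for each group and 8 residual degrees of freedom, with two-sided p values and Benjamini-Hochberg adjustment within a comparison. It was tested on simulated data. The p values measure the spread between these samples, which may be technical, and the number of arrays limits the precision. Confidence intervals are at 95%.

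All 9 class II genes are named. Other genes come from 13 lists (98 genes, 86 measured): those of the CIITA partners and regulators in full, and from the rest up to 4 called genes with the smallest adjusted p. For CIITA, HLA-DOB and CD74 the 3 genes of highest Pearson's r are named. The genes and lists were chosen with earlier results of these data known. The alternatives were a pseudocount of 16, the methods' t-test, limma on 2 groups or with an intensity trend, the replicate letter as a block, other scaling, probe set filters, a fold threshold of 1.5 with unadjusted p, the ACTB end difference as a covariate, and leaving out each array. The t-test carried the same Benjamini-Hochberg adjustment, which the paper does not describe. Promoter sequences are from RefSeq (GRCh38.p14), from which gene positions were also read. Raw scans were not used here.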

Additional observations from a re-analysis of the deposited data

How the results depend on the processing

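Among the 9 genes, no direction was reversed in any alternative for a gene called changed. Values of the named genes outside the 9 were read in the main setting only. HLA-DOB and CD74 against vehicle passed in all 21 alternatives with PLS-123 and with ibrutinib 10 μM, as did HLA-DRA with ibrutinib 10 μM. Over the 9 genes, 6 comparisons and 21 alternatives, 1057 values either kept their call, whatever the shift in size, or stayed uncalled and within the spread. Of the rest, 44 lost the call, 21 gained one and 12 moved beyond the spread without a call. The cause was not tested. With PLS-123 against vehicle, the count of 4 changed genes became 2 by the methods' t-test and 2 at a fold of 1.5 with unadjusted p, and ran from 2 (without array A of PLS-123) to 5 when 1 array was left out. It was 6 with an intensity trend or with dim probe sets left out, HLA-DRA lower and CIITA higher being added. With ibrutinib 10 μM against vehicle, 4 became 2 at a fold of 1.5, 3 to 4 with 1 array left out, 6 with a pseudocount of 16 (HLA-DMB and HLA-DOA higher), and 5 with an intensity trend, quantile normalization, dim probe sets left out or 1 probe set per gene. With ibrutinib 1 μM against vehicle, 0 became 1, HLA-DOB, at a fold of 1.5. For PLS-123 against ibrutinib at 1 μM, 4 became 1 by the methods' t-test, under which CD74 had an adjusted p of 0.0657, and 2 at a fold of 1.5. For PLS-123 against ibrutinib 10 μM, 0 became 1 with a pseudocount of 16 and 1 with an intensity trend, HLA-DRA in both. Between the ibrutinib doses, 3 became 5 with a pseudocount of 16 and ran from 2 to 3 with 1 array left out.

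The sample letters did not pair the arrays: deviations from the group mean correlated at -0.255 to 0.224 for arrays of the same letter and -0.304 to 0.318 for others. With the letter as a replicate block, the counts were 4, 3 and 0 for PLS-123, ibrutinib 10 μM and ibrutinib 1 μM against vehicle, 3 and 0 for PLS-123 against ibrutinib 1 μM and 10 μM, and 2 between the ibrutinib doses.

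Scaling moved the split of calls over all genes. With PLS-123 against vehicle, 63% of called genes were lower, against 51.5% after quantile normalization and 54.9% after centring on 100 control probe sets, and with PLS-123 against ibrutinib 1 μM 63.6%, 51.5% and 52.2%. For PLS-123 against ibrutinib 10 μM it was 66.7%, 46.3% and 63.9%. No scaling moved the median of all genes by more than 0.1.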
